A study of Drosophila melanogaster with 3 samples.

Results

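The genes described here encode nuclear subunits of the oxidative phosphorylation complexes and their duplicates. They were chosen as the protein-coding genes of the Ensembl BDGP6 annotation on the chromosome arms whose symbol begins with ND-, UQCR-, COX or ATPsyn. The rule gave 80 genes of 13968, and each gene was given the strongest peak summit within 500 bp of any of its annotated transcription start sites. By prefix, 40 belonged to complex I (ND-), 9 to complex III (UQCR-), 16 to complex IV (COX) and 15 to complex V (ATPsyn). Of the 80, 17 carry the symbol of another subunit gene followed by L and are called duplicates below. A further 4, namely COX6AL, COX6AL2, COX6CL and ATPsynepsilonL, are paralogues of genes that the prefixes do not select. The other 59 genes are called the primary subunit genes.

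Chromatin immunoprecipitation and sequencing (ChIP-seq) had been done with an antibody against green fluorescent protein (GFP), although the antibody label itself names CG3838. The material was whole embryos of both sexes, pooled, collected from 0 to 24 h of age, of a Drosophila melanogaster line stably carrying CG3838, now called brickwall (brwl), with GFP at its C-terminal end. The samples form 1 group of 3 biological replicates, with chromatin sonicated to between 200 and 800 bp. The embryos mix stages, tissues and sexes, no sample without the tagged protein was used, and whether a region reflects bound protein, open chromatin or antibody background cannot be told apart.

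Oxidative phosphorylation takes place in the inner mitochondrial membrane. Complex I passes electrons from NADH to ubiquinone, complex III passes them on to cytochrome c, and complex IV hands them to oxygen, each moving protons out of the matrix. Complex V, the ATP synthase, lets protons flow back and makes ATP. The mitochondrial genome encodes some central subunits of these complexes, and nuclear genes such as those described here encode the remainder. Several Drosophila subunit genes have retained duplicates, many of which are known for expression in the testis.

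The values come from 5 lists of regions on genome build dm6, each with a summit and a signal, a value from the authors' caller whose scale the sources used here do not describe. The thresholded list held 2239 peaks with signals from 103.5 to 1796 and a median of 148.5, and these were exactly the 2239 strongest of the 15592 pooled regions, whose lowest signal was 40.18. The lists of replicates 1, 2 and 3 held 30000, 30000 and 21147 regions, many of them weak background regions that the authors kept. For that reason the strongest 2239 regions of each replicate, as many as the thresholded list holds, were also read on their own. Replicate 3 stood apart in that 25 of its strongest 2239 regions were mitochondrial, against 0 in replicates 1 and 2. Signals and ranks are comparable only within a list, so differences in signal between replicates are not read as such, and the depth of each replicate is unknown because the lists carry no read counts.

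The sequences under the summits at 6 of the 9 subunit promoters with a thresholded peak are shown first, as examples of where such peaks lay. The summits at ND-42 and COX7AL2 lie in annotated untranslated exons, and ND-MWFE is not shown. Each is read from the RefSeq dm6 sequence, 5′ to 3′ in the direction in which the subunit gene is transcribed, up to 100 bp to each side of the summit. Annotated untranslated exons are left out. Capitals mark matches, on either strand, to the motifs named under each promoter below.
ND-24 (chrX:17632180-17632253, forward strand): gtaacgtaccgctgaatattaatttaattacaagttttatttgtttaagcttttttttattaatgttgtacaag
ND-51 (chr2L:6062758-6062957, reverse strand): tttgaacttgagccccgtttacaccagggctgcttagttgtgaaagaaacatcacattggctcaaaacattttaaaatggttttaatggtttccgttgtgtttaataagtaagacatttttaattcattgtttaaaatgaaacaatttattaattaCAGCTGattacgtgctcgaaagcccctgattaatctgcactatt
ND-ASHI (chrX:6679273-6679473, reverse strand): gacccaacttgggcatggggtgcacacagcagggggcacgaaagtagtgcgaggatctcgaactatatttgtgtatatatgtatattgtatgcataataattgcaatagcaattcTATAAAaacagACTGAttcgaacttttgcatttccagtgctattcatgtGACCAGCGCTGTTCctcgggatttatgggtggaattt
ND-SGDH (chr3L:12138585-12138751, reverse strand): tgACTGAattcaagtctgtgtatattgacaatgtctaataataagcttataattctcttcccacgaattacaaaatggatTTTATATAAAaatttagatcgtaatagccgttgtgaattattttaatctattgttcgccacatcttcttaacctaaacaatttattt
COX5A (chr3R:11819421-11819547, forward strand): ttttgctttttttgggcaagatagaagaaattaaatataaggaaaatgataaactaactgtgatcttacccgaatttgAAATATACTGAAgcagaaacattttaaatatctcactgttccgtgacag
COX8 (chr3L:21539455-21539655, reverse strand): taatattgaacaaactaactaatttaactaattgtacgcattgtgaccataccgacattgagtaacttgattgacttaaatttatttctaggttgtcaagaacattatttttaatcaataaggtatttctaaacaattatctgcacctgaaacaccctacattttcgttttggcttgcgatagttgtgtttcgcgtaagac
The capitals are the E-box CAGCTG at ND-51, a TATAAA and an initiator core (TCAGT) beside overlapping Motif 7 matches on both strands at ND-ASHI, and an initiator core with overlapping TATAAA matches on both strands at ND-SGDH. At COX5A a match to Motif 6 and an initiator core overlap, and the stretches at ND-24 and COX8 hold none of the 10 motifs searched. No motif is shared by all 6 stretches.

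A thresholded peak lay at the promoter of 9 of the 80 subunit genes, ND-ASHI, ND-24, ND-MWFE, ND-51, ND-42, ND-SGDH, COX5A, COX8 and COX7AL2, which is 11.25% (exact Clopper-Pearson 95% interval from 5.275% to 20.28%). Among all protein-coding genes the share was 11.6%, so the subunit genes as a whole lay near the background. In the pooled list, 36 subunit genes (45%, interval from 33.85% to 56.53%) had a promoter summit, against 38.3% of all protein-coding genes. The interval contains the background share here too. All such intervals cover counting error only.

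Within the replicates' full lists, 31, 41 and 45 of the 80 genes had a promoter summit in replicates 1, 2 and 3, against 42.6%, 49.1% and 43.9% of all protein-coding genes. Over the 3 replicates this was 48.75% ± 9.014 of the subunit genes and 45.2% ± 3.415 of all genes (SD, n = 3), and which share was higher differed between replicates. Among the strongest 2239 regions, 8, 7 and 9 subunit genes had a promoter summit in replicates 1, 2 and 3, against 10.8%, 10.8% and 12.3% of all protein-coding genes. That is 10% ± 1.25 of the subunit genes and 11.29% ± 0.8908 of all genes (SD, n = 3), a difference of −1.285 percentage points that was negative in 3 of 3 replicates. An exact sign-flip permutation test over 3 replicates cannot give a two-sided p below 0.25, so the differences in share are given as values over 3 replicates and without a p.

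Agreement between replicates was likewise near the background. All 3 full lists held a promoter summit at 24 subunit genes (30%), against 27.7% of all protein-coding genes. The strongest 2239 regions of all 3 replicates did so at 5 subunit genes (6.25%), against 6.72%. At least 1 of the 5 lists held a promoter summit at 53 subunit genes (66.25%), against 64% of all protein-coding genes, and 27 subunit genes had none in any list.

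The 9 genes with a thresholded peak came from complexes I and IV. Complex I held 6 of the 9 genes, which is 15% of its 40 (interval from 5.71% to 29.84%), and complex IV held 3 of 16, or 18.75% (from 4.047% to 45.65%). None of the 9 complex III genes and none of the 15 complex V genes had a thresholded promoter peak, and counts of 0 allow shares up to 33.63% and 21.8% there. Each of these intervals contains the 11.6% of all protein-coding genes, the intervals overlap, and no test of the complexes against each other was run on this list. In the pooled list the complexes stood close together, with 17 of 40 for complex I (42.5%), 4 of 9 for complex III (44.44%), 8 of 16 for complex IV (50%) and 7 of 15 for complex V (46.67%).

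Complex I had 6 genes among the strongest 2239 regions of each replicate, a share of 15%, and complexes III and V had 0 in each. Of the 6, 5 were in all 3 replicates, and the sixth was ND-SGDH in replicates 1 and 2 and ND-30 in replicate 3. The difference between complex I and complex III, and likewise between complex I and complex V, was thus 15 percentage points in 3 of 3 replicates. The 3 replicates read the same genes, so a constant difference does not cover counting error. Among all protein-coding genes the shares were 10.8%, 10.8% and 12.3%. These lie within the interval of 6 of 40, from 5.71% to 29.84%. They also lie within those of 0 of 9 and 0 of 15, which reach 33.63% and 21.8%. Complex IV had 2, 1 and 3 genes in replicates 1, 2 and 3, a mean share of 12.5% ± 6.25 (SD, n = 3). Complex I minus complex IV came to 2.5, 8.75 and −3.75 percentage points in replicates 1, 2 and 3, and these 2 complexes were not separated beyond the spread between replicates. When a thresholded peak also had to be among the strongest 2239 regions of both remaining replicates, leaving out replicate 1, 2 or 3 left complex I with 5, 5 and 6 genes and complex IV with 1 each time, COX7AL2. It was kept by its interval, which overlaps that of a stronger summit in its intron, and its own promoter summit is not listed in replicate 2. COX5A and COX8 were kept in none of these 3 cases.

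In the full replicate lists no ordering of the complexes held. The mean shares were 49.17% ± 12.33 for complex I, 48.15% ± 6.415 for complex III, 47.92% ± 3.608 for complex IV and 48.89% ± 16.78 for complex V (SD, n = 3). Complex I minus complex III was −20.56 percentage points in replicate 1 and 10.56 and 13.06 in replicates 2 and 3. No pair of complexes kept the same order in all 3 replicates there.

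**Figure D1:**
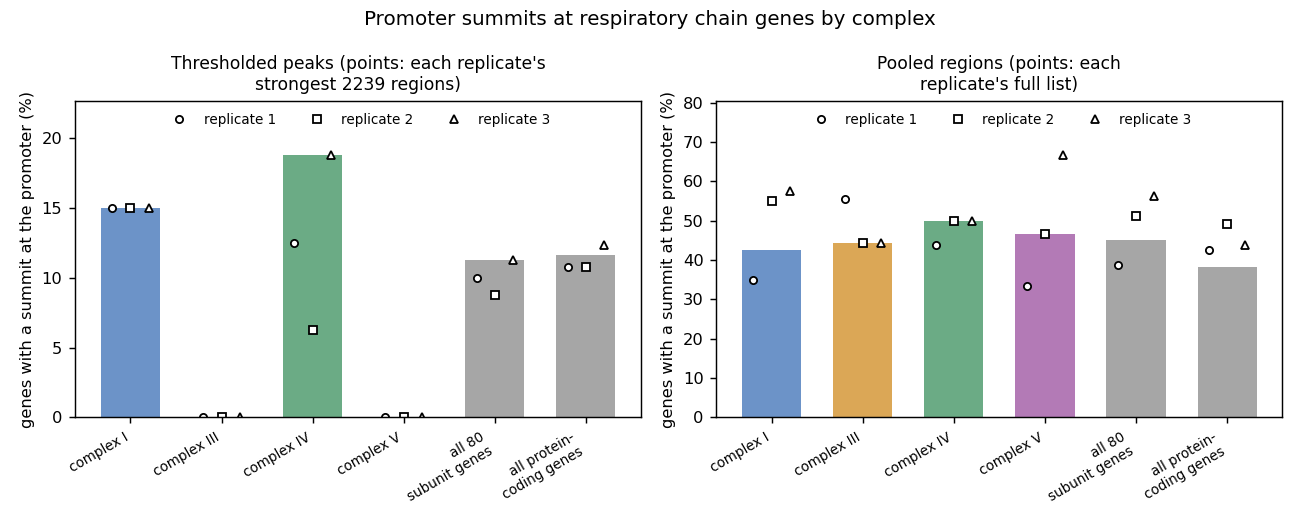
Share of genes (%) with a promoter summit by complex, for all 80 subunit genes and for all protein-coding genes; bars show the thresholded list (left) and the pooled list (right), and points show each replicate's strongest 2239 regions (left) or full list (right). Complexes III and V sit at 0 on the left in every replicate, while the bars on the right lie between 38.3% and 50%.

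Among the complex I genes, the NADH-oxidising core was the group with the most peaks for its size, with 2 of 3 genes in the thresholded list. The interval of this share runs from 9.43% to 99.16%, against 11.6% of all protein-coding genes. Both genes have a neighbour transcribed away from them within 1000 bp, and among all such protein-coding genes the share was 20.6%. The subunits were grouped by role after the values had been seen, so this count is a description. ND-51 (FBgn0031771, 2L from 6060842 to 6062757 on the reverse strand), which encodes the subunit that binds NADH and flavin, had a peak of signal 186.8, rank 674, with signals of 56.73, 68.62 and 50.19 in replicates 1, 2 and 3. The summit lay 100 bp upstream of its start site, outside any annotated transcript, and the replicate summits lay within 35 bp of it. ND-24 (FBgn0030853, X from 17632089 to 17633509, forward strand), which encodes an iron-sulfur partner of that subunit, had a peak of signal 206, rank 546, with 56.44, 70.31 and 71.6 in the 3 replicates. Its thresholded summit lay 105 bp downstream of the nearest ND-24 start site, in an intron. The replicate summits, 28 to 66 bp away from it, were nearest to another ND-24 start site and lay 61 to 99 bp upstream of that one. ND-75, the gene of the large iron-sulfur subunit of the same module, had a region in replicate 2 alone, with a signal of 15.46.

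The core subunits on the quinone side, which carry the last iron-sulfur clusters before ubiquinone, had weaker regions. None of the 4 genes had a thresholded peak, which allows a share up to 60.24%, against 11.6% of all protein-coding genes. A pooled region lay at 3 of the 4, against 38.3% of all, with signals of 62.6 at ND-23, 60.03 at ND-49 and 58.06 at ND-30. ND-23 had 19.86, 16.61 and 35.55 in replicates 1, 2 and 3, and ND-49 had 29.78, 23.2 and 22.94. ND-30 was listed in replicate 3 alone, at 41.07, which placed it among that replicate's strongest 2239. ND-20 had 21.76 in replicate 2 and 14.21 in replicate 3, and no pooled region. All 4 genes were thus listed in at least 1 replicate.

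The accessory subunits, which surround the core and carry none of its redox centres, included the strongest peak at any subunit promoter. ND-ASHI (FBgn0029888, X from 6677262 to 6679118, reverse strand) had a signal of 245.6, rank 370, so that 83.47% of the thresholded peaks were weaker. The replicates listed it at 70.02, 97.28 and 78.27, ranks 408, 390 and 440. Its summit lay 255 bp upstream of the ND-ASHI start site and 267 bp upstream of a start site of Fum1, which encodes the citric acid cycle enzyme fumarase and is transcribed the other way. The peak thus lies between start sites of a respiratory chain gene and a citric acid cycle gene and cannot be assigned to either by position. Longer Fum1 transcripts start further back and run through the summit.

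ND-MWFE (FBgn0085468, 2R from 13158666 to 13160190, forward strand) had a peak of 197.2, rank 601, with 63.5, 68.24 and 62.99 in replicates 1, 2 and 3. The summit was 143 bp upstream of ND-MWFE and 78 bp from TppII, which encodes a large peptidase. ND-42 (FBgn0019957, 3R from 22027709 to 22029393, forward strand) had 172.4, rank 806, with 36.39, 71.96 and 58.58. Its summit was 233 bp upstream of ND-42 but only 4 bp from the start site of Cchl, the cytochrome c haem lyase gene, whose product attaches haem to another component of the chain. ND-SGDH (FBgn0011455, 3L from 12137496 to 12138584, reverse strand) was weaker at 122.7, rank 1626, with 31.93, 46.9 and 36.63, and its summit lay 67 bp upstream of its own start site and 217 bp from RhoGAP68F. ND-ASHI, ND-MWFE, ND-42, ND-51 and ND-24 were among the strongest 2239 regions of all 3 replicates. ND-SGDH was so in replicates 1 and 2 and stood at rank 2317 in replicate 3.

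Of the 27 accessory genes, 4 had a thresholded peak (14.81%) and 12 a pooled region (44.44%), against 11.6% and 38.3% of all protein-coding genes. Those that followed the 4 in the pooled list were ND-B17 with 77.1, ND-18 with 70.03 and ND-MNLL with 56.32. ND-B17 had 23.1, 26.76 and 25.89 in replicates 1, 2 and 3, and ND-18 had 21.94, 20.43 and 20.29. The ND-18 summit lay 347 bp inside the gene, in coding sequence. The other 5, ND-B14.5B, ND-ACP (the mitochondrial acyl carrier protein), ND-B22, ND-MLRQ and ND-39, ranged from 42.14 to 55.37. ND-MLRQ counts here under complex I by its symbol, although its mammalian counterpart is now placed with complex IV. ND-B16.6, which has a divergent start site of kdn, the citrate synthase gene, beside it, had no region within its own window in any list. At kdn itself there was a pooled region of 68.97, with 20.53, 19.17 and 16.36 in replicates 1, 2 and 3.

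**Figure D2:**
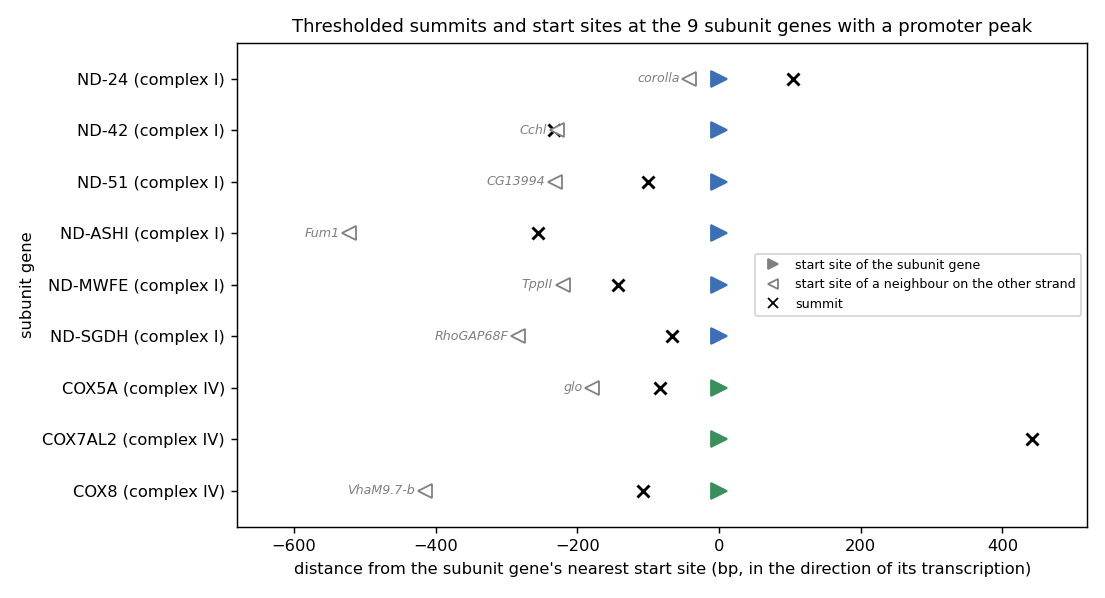
Summits of the thresholded peaks (crosses) relative to the nearest start site of each of the 9 subunit genes (filled triangles at 0, in bp along the direction of transcription), with the start site of the opposite-strand neighbour nearest to the summit (open triangles). In 8 of the 9 genes a neighbour is transcribed away from the subunit gene. Upstream of the subunit gene's nearest start site lie 7 summits, between 67 and 255 bp from it. Among these 7, that of COX5A lies inside the gene, downstream of its first start site.

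Complex III had no thresholded peak at any gene. Of its core proteins, UQCR-C2 had a pooled region of 60.66, with 17.21, 17.85 and 18.88 in replicates 1, 2 and 3. Its summit was 19 bp upstream of the nearest UQCR-C2 start site, inside the gene in the 5′ untranslated region. UQCR-C1, the partner of UQCR-C2, had no region in any list. Of the 4 small subunits, UQCR-14 had 75.89 pooled and 21.98, 26.38 and 25.94 in the replicates, UQCR-Q had 55.7 pooled and 17.68, 15.5 and 20.75, and UQCR-6.4 had 48.44 pooled with 22.53 in replicate 1 and 15.54 in replicate 3. UQCR-11 had none. As none of these genes had a thresholded peak, all 4 pooled signals necessarily lay under the lowest thresholded signal of 103.5.

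Complex IV held the genes closest to the threshold, on both sides of it. COX5A (FBgn0019624, 3R from 11819359 to 11820299, forward strand), which encodes a nuclear subunit on the matrix side, had a peak of 122.5, rank 1630, with 30.41, 40.13 and 45.87 in replicates 1, 2 and 3. Its summit lay 83 bp upstream of its nearest start site and 96 bp from that of glo, an RNA-binding protein gene. That COX5A start site is the second of 2, so the summit lies inside the gene. COX8 (FBgn0263911, 3L from 21538859 to 21539447, reverse strand), the gene of a small membrane subunit, had 111.1, rank 1962, with 31.22, 28.52 and 45.62, and its summit lay 108 bp upstream of it and 307 bp from VhaM9.7-b, a subunit gene of the vacuolar proton pump. Both were among the strongest 2239 regions of replicate 3 and of no other replicate, and COX8 stood at rank 2241 in replicate 1.

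Just outside the threshold stood COX6B at 98.09 and COX5B at 95.48 in the pooled list. COX6B had 34.72, 47.17 and 18.45 in replicates 1, 2 and 3 and was among the strongest 2239 regions of replicates 1 and 2, so by replicate count it stood above COX5A and COX8. COX5B had 19.69, 40.58 and 36.85, and its summit was 19 bp from the start site of IFT52, an intraflagellar transport gene, and 279 bp upstream of COX5B. COX7B followed at 62.68 pooled, with 15.79, 19.63 and 23.84 in the replicates, COX7C at 60.29 and COX7A at 51.24. Of the 8 primary complex IV genes, 7 thus had a pooled region (87.5%, interval from 47.35% to 99.68%), against 38.3% of all protein-coding genes. COX4 was the exception, with no region in any list. With the duplicates and paralogues of complex IV kept in, 8 of 16 genes had a pooled region (50%). As at COX5B, the summits at COX6B, COX7B and COX7C were nearest to other genes, CG33932 (23 bp), Sec3 (117 bp) and oys (82 bp). Among all protein-coding genes with a pooled region, the gene's own start site was nearest in 73.88%.

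Complex V likewise had its regions below the threshold. ATPsynE, of the membrane part, came nearest with 91.27 pooled and 29.76, 38.67 and 25.75 in replicates 1, 2 and 3. Its summit was 43 bp upstream of the nearest ATPsynE start site, inside the gene in the 5′ untranslated region. ATPsynF had 62.57 pooled, with 28.59 in replicate 1, 14.13 in replicate 2 and none in replicate 3. With 59.89 at ATPsynC, which encodes the rotating ring, and 44.44 at ATPsynG, 4 of 4 genes of that part had a pooled region. The interval of this share runs from 39.76% to 100%, against 38.3% of all protein-coding genes. The duplicate ATPsynGL, not counted here, had no region. The ATPsynF summit lay in coding sequence of CG3548, 217 bp from its start site, and the ATPsynG summit lay 94 bp from that of SCAR. Both summits were nearer to these start sites than to that of the subunit gene. Of the peripheral stalk, which holds the catalytic head still, ATPsynO had 63.89 pooled, with 16.54 in replicate 1, none in replicate 2 and 27.06 in replicate 3. ATPsynD had 47.33, with its summit in coding sequence of mRpL55, and ATPsynB and ATPsynCF6 had none in the pooled list.

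In the catalytic F1 part, ATPsyngamma had a pooled region of 41.36, near the lowest of the list. ATPsynbeta, the gene of the catalytic subunit, was the only subunit gene found in all 3 replicate lists without a pooled region, with signals of 16.5, 14.5 and 28.96 at −290, −403 and 148 bp from its nearest start site. The summits of replicates 1 and 2 thus lay on 1 side of the gene's start and that of replicate 3 on the other. All 11 primary complex V genes had a promoter summit in at least 1 of the 5 lists, or 11 of all 15 (73.33%). Among all protein-coding genes it was 64%. In replicates 1, 2 and 3 it was 5, 7 and 10 of the 11 (45.45%, 63.64% and 90.91%), against 42.6%, 49.1% and 43.9% of all protein-coding genes. In all 3 replicate lists it was 2 of the 11 (18.18%), against 27.7%.

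**Figure D3:**
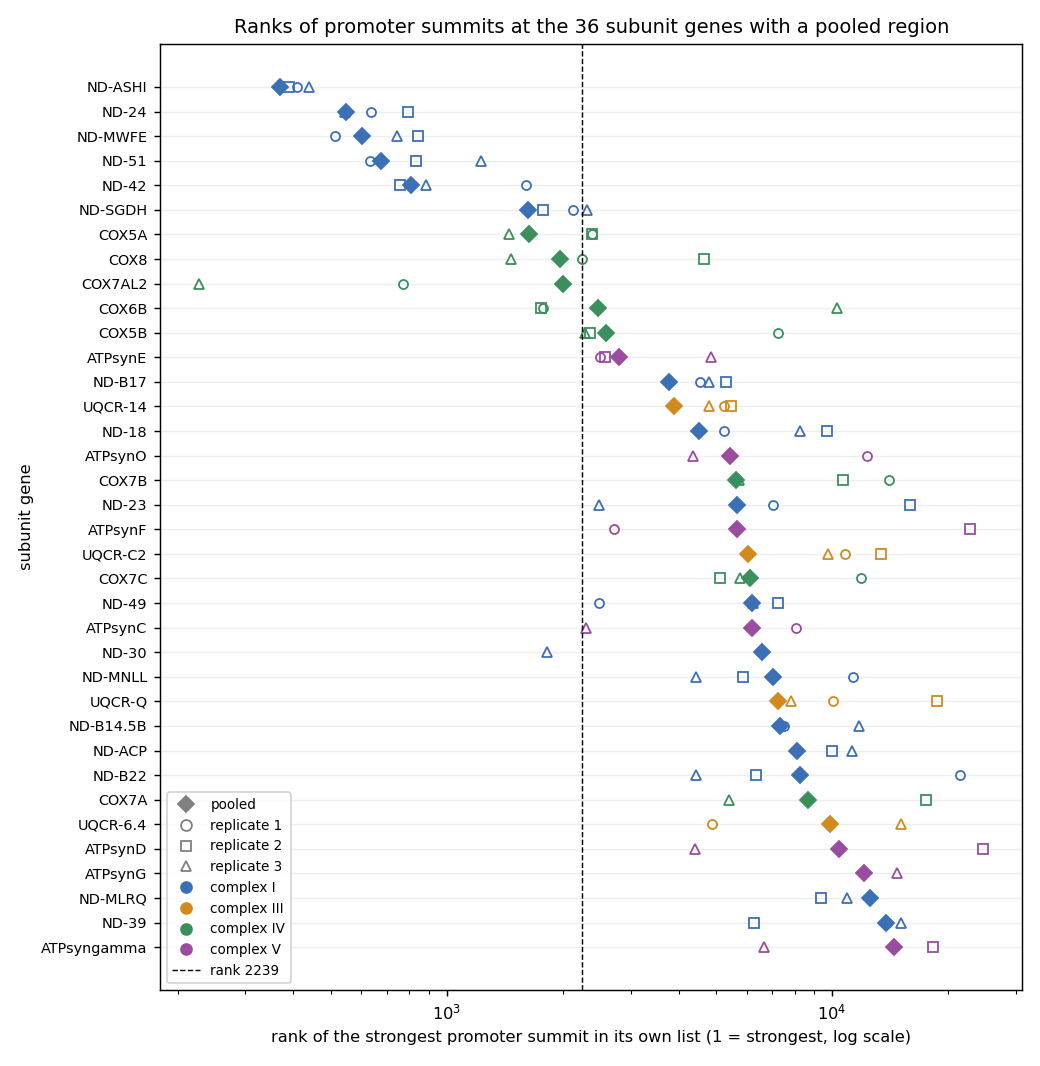
Rank (log scale, 1 is the strongest) of the promoter summit at each of the 36 subunit genes with a pooled region, in the pooled list (diamonds) and in each replicate's own list (open symbols), coloured by complex; the dashed line is rank 2239. The 5 complex I genes at the top lie left of the line in all lists drawn, and the complex III and V genes lie right of it in all of them; ranks of lists of different length are not comparable.

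Few of the duplicates had a promoter summit. Of the 17 duplicates, 1 had a thresholded peak (COX7AL2) and the same 1 had a pooled region. UQCR-14L, with 15.88 in replicate 1, UQCR-6.4L, with 15.67 in replicate 2, and COX5BL, with 15.23 in replicate 2, were each listed once, and 13 duplicates were in no list. The 4 paralogues of genes outside the rule were in no list either. Together 1 of these 21 genes had a pooled region (4.762%, interval from 0.1205% to 23.82%). Among the 59 primary genes it was 35 (59.32%, from 45.75% to 71.93%), and among all protein-coding genes 38.3%. Most of the 21 have no neighbour transcribed away within 1000 bp, and among all protein-coding genes without one the pooled share was 26.1%.

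With the duplicates set apart, 8 of the 59 primary genes had a thresholded peak (13.56%, interval from 6.04% to 24.98%), which is still near the 11.6% of all protein-coding genes. The strongest 2239 regions of replicates 1, 2 and 3 gave 7, 7 and 8 of the 59, a mean of 12.43% ± 0.9786 against 11.29% ± 0.8908 of all genes (SD, n = 3). In the full lists it was 29, 39 and 44 genes, a mean of 63.28% ± 12.95 against 45.2% ± 3.415, higher in 3 of 3 replicates by 6.527, 17.03 and 30.67 percentage points. The primary genes were thus listed more often than protein-coding genes at large in each replicate, by weak regions more than by strong ones. Of the 59, 41 have a neighbour transcribed away within 1000 bp, as do 5494 of 13968 protein-coding genes. The full lists of replicates 1, 2 and 3 held 51.22%, 73.17% and 73.17% of the 41, against 55.93%, 65.96% and 62.6% of the 5494. The strongest 2239 regions held 17.07%, 17.07% and 19.51%, lower than 18.66%, 18.47% and 22.3%. Of the other 18 they held 0, and the full lists 44.44%, 50% and 77.78%, against 34%, 38.13% and 31.79% of other genes. By complex, the pooled list held 17 of 34 primary genes of complex I, 4 of 6 of complex III, 7 of 8 of complex IV and 7 of 11 of complex V.

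COX7AL2, the exception among the duplicates, holds the peak ranked 2 in the genome. The gene (FBgn0085201, 2L from 2192525 to 2197912, reverse strand) has annotated start sites at 2197912, 2193010 and 2192963. The summit that gave it a promoter peak, at 2197470, had a signal of 109.8, rank 2003, and lay 442 bp downstream of the first start site in the 5′ untranslated region. A far stronger summit of an overlapping interval, at 2197264 in an intron, had a signal of 1676, rank 2 of all 2239, and lay 648 bp downstream of the first start site, outside the window. Its sequence is shown because it is the strongest summit inside any subunit gene, from the RefSeq dm6 sequence in the direction of COX7AL2, with a GAGAG match on the other strand in capitals.
COX7AL2 intron (chr2L:2197164-2197308, reverse strand): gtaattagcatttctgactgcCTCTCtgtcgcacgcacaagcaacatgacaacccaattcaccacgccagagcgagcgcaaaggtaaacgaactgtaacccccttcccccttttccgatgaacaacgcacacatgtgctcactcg
In replicates 1, 2 and 3 the intron summit had signals of 635.8, 686 and 354.4, ranks 2, 4 and 25, and 19 of the 24 regions above it in replicate 3 were mitochondrial. The promoter summit was listed in replicate 1 at 51.86 and in replicate 3 at 102.7, and not in replicate 2. Further thresholded peaks lay upstream of the first start site at −1439 bp (141.1), −3247 bp (112) and −4456 bp (362.4), the last of them nearest to CG31668. The count of 9 subunit genes thus includes COX7AL2 through a weaker summit beside one that the 500 bp window does not reach.

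**Figure D4:**
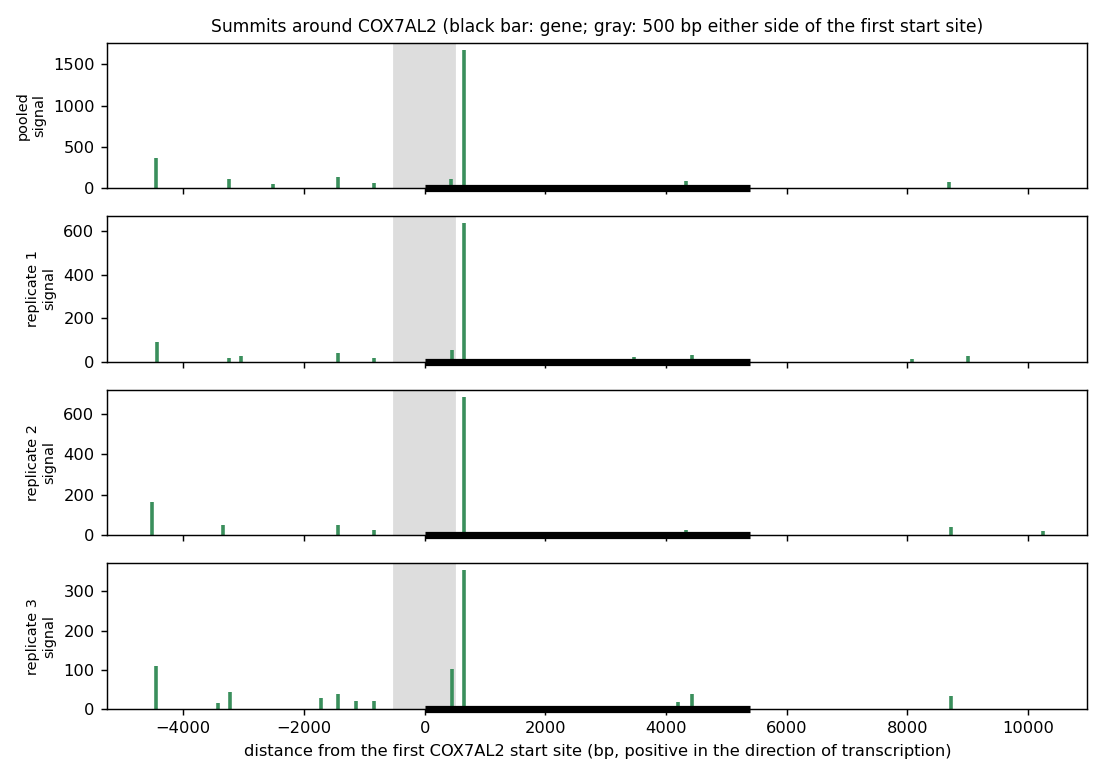
Signal (the authors' value, on a separate scale in each panel) of the summits around COX7AL2 in the pooled list and the 3 replicate lists, by distance in bp from its first start site along the direction of transcription; the black bar is the gene and the gray band is 500 bp to each side of that start site. The tallest summit, 1676 in the pooled list, stands just outside the band in all 4 panels, and the weaker one inside it is missing in replicate 2.

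Neighbouring genes transcribed away from the subunit gene were common at the genes with a peak. A gene was called divergent when a start site of a gene on the other strand, transcribed away, lay within 1000 bp of one of its own. Of the 44 divergent subunit genes, 8 had a thresholded peak (18.18%), against 20.6% of all divergent protein-coding genes. Of the 36 others, 1 had a thresholded peak (2.778%, COX7AL2), against 5.81% of all other protein-coding genes. Among the primary genes it was 8 of 41 divergent and 0 of 18 other genes in the thresholded list, where divergent genes had the higher share among all protein-coding genes too. In the pooled list it was 25 of the 41 divergent primary genes (60.98%), against 57% of all divergent protein-coding genes, and 10 of the 18 others (55.56%), against 26.1% of all other protein-coding genes. The difference between divergent and other genes was thus smaller there among the primary subunit genes than among all protein-coding genes, and was not tested. When the duplicates and paralogues were kept in, the pooled list held 25 of the 44 divergent subunit genes (56.82%) and 11 of the 36 others (30.56%). These shares lay nearer to the 57% and 26.1% of all protein-coding genes. The small difference among the primary genes thus depended largely on setting the duplicates and paralogues apart.

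Summit positions were measured from the nearest start site of the subunit gene. The median of the 9 thresholded summits was −100 bp (quartiles −143 and −67), against −135 bp for all genes with a thresholded promoter peak. Upstream summits made up 7 of the 9 (77.78%), against 86.22%. The gene's own start site was the nearest of any gene's for 7 of 9 (77.78%), against 67.32%, the exceptions being ND-42 and ND-MWFE. The median signal was 172.4 at the 9 subunit genes and 156.3 at all genes with a thresholded promoter peak, and among genes with a pooled region it was 62.58 at the 36 subunit genes and 71.32 at all.

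Thresholded peaks that lay inside a subunit gene or within 5000 bp of it, but not at its promoter, were found at 21 genes (26.25%), against 23.5% of all protein-coding genes, and 19 of the 21 had none at the promoter. Most of these belonged to neighbours by position, since the nearest start site was that of the subunit gene for 4 of 24 peaks. Of these 4, COX7AL2 had 3, and COX7C had a peak of 142.7 at 1964 bp upstream. Among genes not described above, such a peak lay near ND-B12 (105.8), ND-B15 (141.7), ND-B8 (149.5), ATPsyndelta (105.8) and COX7CL, where it was the COX7C peak. The only other peak inside a subunit gene was in ND-39, with a signal of 131, at 69 bp from a start site of ZnT77C. The strongest neighbouring peak was 743.9 at 3313 bp upstream of ND-51, 17 bp from the start site of CG9147, and the next was 410.3 at 2850 bp upstream of ND-B22, 59 bp from CG6565.

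The promoter sequences were searched for 10 motifs on both strands, from 250 bp upstream to 50 bp downstream of the canonical start site. The motifs were the DNA replication-related element (DRE, TATCGATA), the E-box CAGCTG, the other E-box with the letters CACGTG, the purine repeat spelled GAGAG, the upstream core promoter element spelled TATAAA, the initiator core with TCAGT, and by name Motif 1, Motif 6 and Motif 7 of Drosophila core promoters and the nuclear respiratory gene (NRG) element. The letters used for the 4 motifs given by name were written from general knowledge and were not checked against a source here, so the shares hold for those letters. Motif 6 can overlap the initiator core. Motif 1 was in 14 of 80 subunit promoters (17.5%), against 4.353% of all protein-coding promoters. It was in 14 of 59 primary genes (23.73%) and in 0 of the 21 duplicates and paralogues, which allows a share of up to 16.11% (95% interval).

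Motif 1 was more frequent where a pooled region lay, a difference that was not tested and that rests on few promoters among the subunit genes. It was in 11 of the 35 primary promoters with a pooled region (31.43%), against 6.512% of all protein-coding promoters with one. Of the 24 primary promoters without a pooled region 3 held it (12.5%), against 3.015% of all those without. The matches were not at the summits, since their distance from the pooled summit ran from 49 to 346 bp with a median of 171 bp, and 3 of 11 lay within 100 bp. The matches at 9 of the promoters with a pooled region are shown, with 1 or more from each complex, because the share of promoters with this element was higher at the subunit genes than at all genes in both classes. Capitals mark the match, read on the strand on which it matches, with 5 bases to each side, from the RefSeq dm6 sequence.
ND-18: tcgccTGGTCACACTGgcact
ND-ACP: gcataCGGTCACACTGctacc
ND-B17: gagtgCGGTCACACTGgcggc
UQCR-Q: gtccaCGGTCACACTGgttga
COX5A: aattgCGGTCACACTGcatct
COX5B: taccgCGGTCACACTGatcca
COX7B: cacaaCGGTCACACTGttcaa
ATPsynC: tgttaTGGTCACACTGcgcct
ATPsynD: cgggtCGGTCACACTAtcagc
Of the 9 shown, COX5A alone has a thresholded peak, and its match lies 189 bp from the summit. ND-MWFE, not shown, has a thresholded peak and a match 171 bp from the summit.

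The other motifs were above the background in some cases and below it in others. CAGCTG was in 26.25% of the 80 subunit promoters against 17.91% of all protein-coding promoters, and it was less frequent in the primary promoters with a pooled region (25.71%) than in those without (45.83%). Motif 6 was in 7.5% against 2.105% and Motif 7 in 13.75% against 9.121%. The DRE was in 10% against 8.949%, and in none of the 9 promoters with a thresholded peak. TATAAA was in 47.5% against 45.34% and CACGTG in 5% against 4.281%. In a promoter window centred on the start site, CACGTG was in 1.25% of the subunit promoters. The initiator core, in 33.75% against 51.85%, and GAGAG, in 22.5% against 30.25%, were less frequent at the subunit genes. The NRG element was in 0 of 80 against 0.1432%. These letters in a window do not show that any factor sits there.

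**Figure D5:**
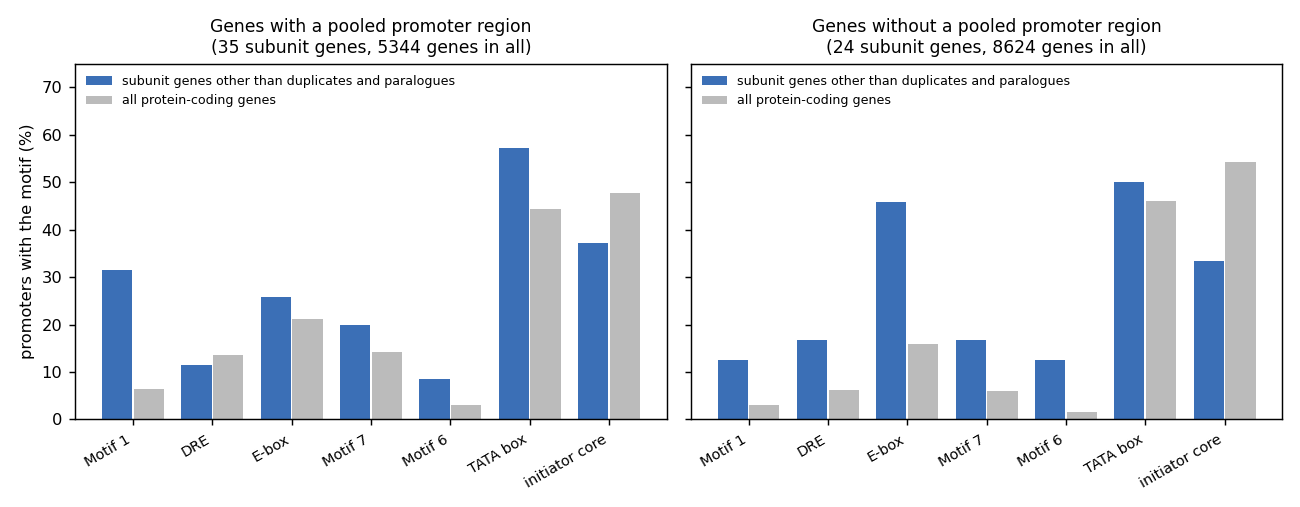
Share of promoters (%) with each of 7 motifs, for the primary subunit genes (blue) and all protein-coding genes (gray), with a pooled promoter region (left) and without (right). Motif 1 stands at 31.43% of 35 primary promoters against 6.512% of all promoters on the left, and at 12.5% of 24 against 3.015% on the right.

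Other genes of the pathway were taken from 6 lists of 78 symbols, of which 72 genes were matched. A thresholded promoter peak lay at 12 of the 72 (16.67%) and a pooled region at 37 (51.39%), against 11.6% and 38.3% of all protein-coding genes. The list of subunit and cytochrome c genes that the prefixes miss had 1 of 15 (6.667%). This was the cytochrome c gene Cyt-c-d, at 411.6, with 136, 140 and 140.6 in replicates 1, 2 and 3. Its summit lay 351 bp downstream of its nearest start site, and none of the subunit genes in this list had a thresholded peak. The signal at Cyt-c-d is above that at ND-ASHI, the strongest of the 80. The assembly factors, which build the complexes without being part of them, had 4 of 12 (33.33%), with CIA30, a complex I factor, at 336.3, Ttc19, a complex III factor, at 163.5, and Sirup, a complex II factor, at 137.6.

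The citric acid cycle had 3 of 13 genes with a thresholded peak (23.08%), against 11.6% of all protein-coding genes, with Fum1 at 245.6, the peak shared with ND-ASHI, Idh3g, an isocitrate dehydrogenase subunit, at 208.2 and mAcon1, aconitase, at 140.2. The genes that maintain and transcribe mitochondrial DNA had 2 of 11 (18.18%), mtSSB at 174.1 and PolG2 at 166. Carriers and import had 1 of 16 (6.25%), Tom7 at 112.6, and regulators 1 of 5 (20%), ERR at 123.9.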

How the data were processed

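Peak lists of 3 biological replicates of anti-GFP ChIP-seq were used. The authors called peaks and background regions on each replicate and on the pooled replicates against a shared control, and thresholded them by irreproducible discovery rate, per the README files among the deposited data. The signal of each region is a deposited value of the authors' caller. Which aligner, caller and threshold were used is not given in the sources used here. Lists on build dm3 were not used here.

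Start sites came from Ensembl release 115, on dm6. A promoter summit lay within 500 bp of a start site, and the strongest per gene and list was kept. Intervals are exact Clopper-Pearson intervals at 95%. Scripts used Python 3.11.15, NumPy 2.4.6 and SciPy 1.17.1 and were tested on simulated data. Subunit genes, lists and motifs were chosen with earlier results of these data known. Of 78 symbols for other pathway genes, 3 were matched by a synonym, 1 pair named the same gene and 5 were not matched. Named genes were those with a thresholded promoter peak, the 10 next by pooled signal, those in all replicate lists without a pooled region, those with a peak inside or within 5000 bp, and up to 3 genes of each other list. Other genes were named to account for each role group, after their values were seen.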

Additional observations from a re-analysis of the deposited data

Results flagged for a closer look

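Regions on the mitochondrial genome drew attention because they lie outside the comparisons above and appear in a single replicate. The list of replicate 3 holds 25 of them, and the lists of replicates 1 and 2, the pooled list and the thresholded list hold 0. Their signals run from 44.46 to 2812, and 19 exceed the highest nuclear signal of that list, 439.9. They cover 8677 bp and overlap 11 of the 13 protein genes of the mitochondrial genome, which encode further subunits of complexes I, III, IV and V. The highest signals were 2812 at mt:ATPase6 and mt:CoIII, 2761 at mt:Cyt-b and 2654 at mt:CoI, while mt:ATPase8 and mt:ND6 had none. All 25 are among the strongest 2239 regions of replicate 3, so they take places there that nuclear regions could hold. Their cause was not tested.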

How the results depend on the processing

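No paired analysis was possible because the samples form 1 group. With the strongest 500 peaks, 1 subunit gene had a thresholded promoter peak in place of 9, 1 of complex I in place of 6, 0 of complex IV in place of 3 and 0 duplicates in place of 1, since fewer peaks are read. A window of 1000 bp gave complex V 2 genes in place of 0, and a window of 250 bp gave 0 duplicates. Leaving out COX7AL2, an alternative chosen after seeing the data, gave 0 duplicates. When peaks had to be among the strongest 2239 regions of both remaining replicates, leaving out 1 replicate in turn gave 6 to 7 subunit genes, 5 to 6 of complex I and 1 to 1 of complex IV, which was COX7AL2 by its interval and neither COX5A nor COX8. The same rule gave 6 to 8 subunit genes for the pooled list in place of 36, and 24 to 29 when regions of any rank counted, which was added after seeing the data. A promoter window centred on the start site gave CACGTG in 1.25% of the subunit promoters in place of 5%. The other alternatives left each of these counts within 1.5 times the value above. Depth is unknown, so a gene without a region may have one that was not detectable.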
